A study of Mus musculus with 66 samples.

Results

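Neurofilament and neuronal intermediate filament transcripts were followed across 66 RNA-seq libraries of mouse brain, spinal cord and dissected brain regions. The genes were taken as a named family, with no measured value in the rule but with earlier results of these data known: Nefl, Nefm, Nefh, Ina and Prph are 5 of the 45706 gene identifiers counted in every library. The libraries came from homozygous high-stepping mice carrying 1 of 5 spontaneous Rorb alleles and from strain-matched controls. Rorb h1/h1 arose on C57BL/6J and carries a duplication upstream of Rorb that takes in the first exon of the Rorb1 transcript. Rorb h2/h2 and Rorb h3/h3 arose on B6(Cg)-Tyr c-2J/J and no causal variant is given for either in the study. Rorb h4/h4 arose on B6.129S7-Il1r1 tm1Imx/J and carries a nonsense variant, and Rorb h5/h5 arose on DBA/1J and has lost the start codon of Rorb1. All 4 alleles on a C57BL/6-derived background were compared with the same 3 C57BL/6J brain and 3 C57BL/6J spinal cord libraries, so these comparisons share their controls, and a background that carries the Tyr c-2J or Il1r1 tm1Imx allele cannot be told apart from the Rorb allele it carries. Brain hemi-sections and spinal cords with the same sample number were taken to come from the same mouse. They were of both sexes and 7.9 to 9.6 weeks of age. There were 3 libraries for each of C57BL/6J, Rorb h1/h1, DBA/1J and Rorb h5/h5 and 4 for each of the h2, h3 and h4 mutants. Age followed group in part: C57BL/6J mice were at 8.0 weeks, Rorb h4/h4 at 8.4 to 8.6 and DBA/1J at 8.4 to 8.9. Age therefore cannot be told apart from the h4 allele, or from strain, in comparisons with C57BL/6J. Cortex, hippocampus and cerebellum carry an age of 7 weeks in the labels, with 3 DBA/1J and 3 Rorb h5/h5 libraries for each region. The study's methods have Rorb h5/h5 brains split between hemi-section and dissection, so whether regions and hemi-sections share mice is not settled here. Every mutant carries its allele in all tissues, and within a tissue each library is a different mouse, so the p-values measure the spread between mice.

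Neurofilaments are the intermediate filaments of neurons and fill the axons of large, myelinated cells, where they set axon calibre and so conduction speed. Nefl encodes the light chain, the core of the filament. Nefm and Nefh encode the medium and heavy chains, whose long phosphorylated tails project sideways from it, and Ina encodes alpha-internexin, a partner subunit of central neurons. Prph encodes peripherin, which is typical of neurons with an axon outside the brain, such as motor and sensory neurons. In adults the light, medium and heavy chains are abundant in motor neurons and other long-projecting cells, and neurofilament protein released from injured axons is a widely used marker of axonal damage.

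The RefSeq promoters of Ina and Prph are shown because the table used here holds these 2 of the 5 genes, which were also the members called between C57BL/6J and DBA/1J; each is the 250 bases before the annotated start, 5′ to 3′ on the plus strand of GRCm38.p6. The Ina window is chr19:47014431-47014680 and the Prph window is chr15:99054924-99055173, which lies inside the span RefSeq gives for Prph. Capitals mark the TATA box letters TATAAA and the GC box letters GGGCGG, the latter read on either strand and here found as the reverse complement.
Ina: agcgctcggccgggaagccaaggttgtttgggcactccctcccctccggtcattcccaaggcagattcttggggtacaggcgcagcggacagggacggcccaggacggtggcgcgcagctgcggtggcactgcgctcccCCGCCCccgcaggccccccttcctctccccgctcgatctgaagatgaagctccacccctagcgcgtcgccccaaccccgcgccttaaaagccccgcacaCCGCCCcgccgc
Prph: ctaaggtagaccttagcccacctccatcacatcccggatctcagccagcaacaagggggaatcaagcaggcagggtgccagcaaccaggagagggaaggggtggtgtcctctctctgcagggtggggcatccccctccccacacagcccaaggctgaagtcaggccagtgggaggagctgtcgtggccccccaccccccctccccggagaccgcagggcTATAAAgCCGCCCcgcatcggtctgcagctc
The Prph window held TATAAA once, 31 bases before the start, and directly downstream of it 1 GC box at -24. The Ina window held no TATAAA and 2 GC boxes, at -111 and -12, and its GC content was 70.8% against 65.2% for Prph. TATAAA was present on either strand in 12.4% and GGGCGG in 32.7% of 32851 mouse promoter windows of this length. The letters AGGTCA, the ROR half-site that RORbeta recognises, were not in either window and were in 14.0% of all windows, and CCAAT was in neither window and in 33.8% of all.

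The genes lie at separate loci in GRCm38.p6 apart from the neighbours Nefl (ENSMUSG00000022055, chromosome 14, 68083863 to 68089095) and Nefm (ENSMUSG00000022054, chromosome 14, 68119545 to 68125004). Nefh (ENSMUSG00000020396) lies on chromosome 11 at 4938754 to 4948064, Ina (ENSMUSG00000034336) on chromosome 19 at 47014681 to 47025327 and Prph (ENSMUSG00000023484) on chromosome 15 at 99053579 to 99058978. Each value covers the whole gene. Libraries held 32889755 to 59120536 expected counts, so that Nefl, with 6965 to 109737 counts in a library, was measured far above counting noise, whereas Prph had as few as 5.

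Some libraries stood apart in ways that bear on these genes. The DBA/1J brain library of replicate 1 summed to 0.38 TPM (transcript abundance scaled to transcript length and library size) over the cerebellar granule cell markers Gabra6 and Cbln3, against 89.4 to 226.4 in the other 23 brain libraries, and to 58.9 over Purkinje cell markers against 249.6 to 518.3. Granule cell markers were thus at or near 0 in 1 of the 3 DBA/1J hemi-sections, and calls that rest on DBA/1J brain are also given without it. The Schwann cell markers Prx and Pmp2 summed to 54.2 TPM in the spinal cord of Rorb h5/h5 replicate 3 and to 4.74, 3.19 and 2.79 TPM in Rorb h5/h5 replicate 1, Rorb h2/h2 replicate 1 and C57BL/6J replicate 1, against 0.22 to 1.03 in the other 20 spinal cords. Rorb h5/h5 replicate 3 of cortex, hippocampus and cerebellum carried a female label although Y-linked transcripts were present. Rorb itself, checked first, averaged 11.9 TPM in C57BL/6J brain, 7.57 with h1, 6.19 with h2, 11.4 with h3 and 3.07 with h4, and it was higher in Rorb h5/h5 brain (16.7) than in DBA/1J brain (12.2).

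Spinal cord held far more neurofilament transcript than any brain sample, and the excess differed by subunit. Since TPM is scaled to transcript length, levels can be set side by side between genes. In C57BL/6J, Nefl was at 263.2, 283.9 and 279.7 TPM in the 3 brains and at 1035, 988.2 and 1091 TPM in the spinal cords of the same sample numbers. Nefm rose from 180.7, 192.7 and 188.5 TPM to 1096, 987.5 and 1143 TPM. Nefh rose from 88.8, 85.6 and 76.5 TPM to 544.1, 502.8 and 614.1 TPM. No spinal cord value came near a brain value for these 3 chains. Ina was at 115.5, 125.4 and 118.9 TPM in brain and at 166.1, 164.4 and 177.0 TPM in spinal cord, which again did not overlap but lay much closer together. Prph moved furthest, from 3.10, 3.67 and 2.90 TPM to 46.9, 46.9 and 50.7 TPM.

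**Figure D1:**
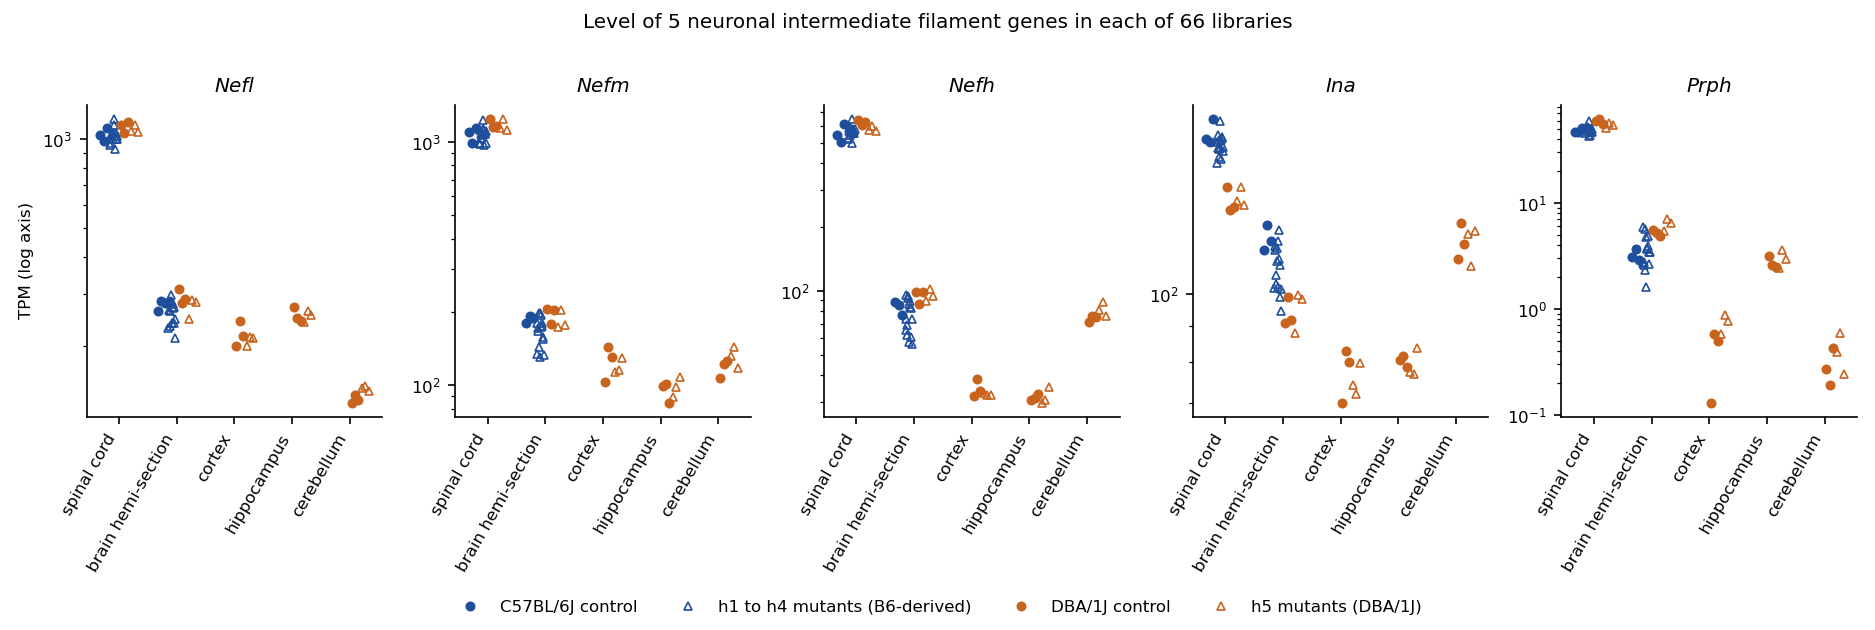
TPM of each gene (log scale, 1 point per library, all genotypes) in the 5 tissues. Spinal cord libraries lie above all others for Nefl, Nefm, Nefh, Ina and Prph, while Ina spans the narrowest range and Prph is at or below 0.87 TPM in every cortex and cerebellum library.

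By edgeR's quasi-likelihood test on the counts, all 5 genes were higher in C57BL/6J spinal cord than in brain, where 56.9% of all genes tested passed an adjusted p of 0.05 in either direction. The log2 fold change was 3.94 for Prph (SE 0.08, 15.3-fold, adjusted p = 1.1e-12), 2.75 for Nefh (SE 0.08, 6.72-fold), 2.54 for Nefm (SE 0.06, 5.83-fold), 1.94 for Nefl (SE 0.05, 3.83-fold) and 0.52 for Ina (SE 0.04, 1.43-fold, adjusted p = 3.0e-07). DBA/1J gave the same order, with 50.8% of all genes called. There Prph differed by 3.48 (SE 0.10, 11.1-fold), Nefh by 2.69 (6.45-fold), Nefm by 2.56 (5.91-fold), Nefl by 1.87 (3.66-fold) and Ina by 0.50 (1.41-fold, adjusted p = 4.8e-05). Without the DBA/1J brain that lacked cerebellar markers these were 3.53 for Prph, 2.72 for Nefh, 2.60 for Nefm, 1.92 for Nefl and 0.48 for Ina, and all 5 stayed called. In bulk tissue, fewer cells of a type and less RNA per cell cannot be told apart, here and in every result that follows.

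Motor neuron and oligodendrocyte marker sums were also higher in spinal cord. The 5 motor neuron markers (Chat, Slc5a7, Slc18a3, Mnx1 and Isl1) summed to 78.5 to 100.9 TPM in the 24 spinal cords and to 10.3 to 20.2 TPM in the 24 brains, and 4 of 5 were higher in C57BL/6J spinal cord with none lower, against 56.9% of all genes called in either direction. Oligodendrocyte markers summed to 12020 to 17000 TPM in spinal cord and 3247 to 5109 TPM in brain. Markers of sensory ganglion neurons, which express Prph but whose cell bodies lie outside the cord, summed to 1.76 to 4.05 TPM in spinal cord and 2.61 to 4.43 TPM in brain, which overlapped. The part of any cell type in the neurofilament difference was not tested.

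Within the brain of DBA/1J mice each region had its own balance of subunits. Nefl was lowest in cerebellum, at 129.1, 136.8 and 131.8 TPM, against 200.1, 242.5 and 216.5 in cortex and 272.1, 249.0 and 243.2 in hippocampus. No cerebellum library reached a cortex or hippocampus library, and Nefl, the filament core, ran opposite to Nefh. Nefh was highest in cerebellum, at 71.2, 76.2 and 75.1 TPM, against 31.8, 38.4 and 33.5 in cortex and 30.4, 31.0 and 32.4 in hippocampus. Ina followed Nefh, with 112.1, 125.9 and 117.8 TPM in cerebellum, 70.0, 82.9 and 79.9 in cortex and 80.4, 81.6 and 78.6 in hippocampus. The cerebellum stood clear of both other regions for Nefh and Ina, whereas cortex and hippocampus overlapped for both. Nefm was at 103.0, 142.9 and 130.2 TPM in cortex, 107.0, 122.6 and 125.7 in cerebellum and 99.5, 101.1 and 84.6 in hippocampus, so that cortex and cerebellum overlapped and hippocampus lay just below them.

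Of the 5 genes, 4 were called between cerebellum and cortex, where 58.1% of all genes were called. Nefl fell by 0.97 on the log2 scale (SE 0.08, adjusted p = 4.4e-06, edgeR) and Nefh rose by 0.86 (SE 0.08, adjusted p = 9.9e-06), and Ina rose by 0.37 (SE 0.07, adjusted p = 0.00174). Nefm passed in the count test (log2 fold change -0.32, SE 0.11, adjusted p = 0.0280) although its libraries overlapped, and on log2(TPM + 1) it was -0.07 with adjusted p = 0.638. That Nefm call was also lost without cortex replicate 2 (adjusted p = 0.115), cerebellum replicate 1 (0.130) or cerebellum replicate 2 (0.0745). Between hippocampus and cerebellum, where 64% of genes were called, 4 of 5 passed: Prph was 3.35 higher in hippocampus (SE 0.33, 10.2-fold), Nefl 1.10 higher (SE 0.06, 2.15-fold), and Nefh fell by 1.09 (SE 0.05) and Ina by 0.40 (SE 0.05). Nefm was -0.16 there (adjusted p = 0.141), and it was called on log2(TPM + 1) (-0.31, adjusted p = 0.0115) and without cerebellum replicate 1 (-0.23, adjusted p = 0.0468). Between hippocampus and cortex 20.6% of all genes and 2 of these 5 were called. Nefm was lower in hippocampus by -0.45 (SE 0.11, adjusted p = 0.0227), a call lost without cortex replicate 2 (0.0891) or hippocampus replicate 3 (0.0946) and on log2(TPM + 1) (-0.39, adjusted p = 0.0798), and Prph was higher by 2.76 (SE 0.42, 6.76-fold, adjusted p = 0.00227). Nefl differed by 0.16 (adjusted p = 0.258), Nefh by -0.20 (adjusted p = 0.0841) and Ina by -0.01 between these 2 regions.

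Prph was scarce in the brain, and among the dissected regions it was highest in the hippocampus. Its TPM was 3.16, 2.59 and 2.48 in DBA/1J hippocampus, from 89, 78 and 82 counts. In cortex it was 0.13, 0.58 and 0.50, from 5, 17 and 15 counts, and in cerebellum 0.27, 0.19 and 0.43, from 7, 6 and 14 counts. All hippocampus values lay above all cortex and cerebellum values, and cortex and cerebellum overlapped (log2 fold change -0.62, SE 0.59, adjusted p = 0.395). The 95% interval of that difference ran from -1.78 to 0.54, and what size of difference these counts could detect was not tested. Over both genotypes (n = 6 each) choroid plexus markers (Ttr, Folr1 and Kl) summed to 229.5 to 6127 TPM in hippocampus, 16.8 to 863.4 in cortex and 10.3 to 3647 in cerebellum, and meningeal markers (Dcn, Col1a1 and Igf2) to 163.8 to 290.7, 55.1 to 79.4 and 122.6 to 180.0. Their part in the Prph difference was not tested.

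Ordered by mean TPM in DBA/1J, Nefl, Nefm, Nefh and Ina each had a different sequence of tissues. Prph had the order of Nefl, although its cortex and cerebellum libraries overlapped. For Nefl the order was spinal cord (1100 ± 44.0, SD, n = 3), brain hemi-section (293.5 ± 17.4), hippocampus (254.8 ± 15.3), cortex (219.7 ± 21.4) and cerebellum (132.6 ± 3.93), and every hippocampus library lay above every cortex library although the count test did not pass (adjusted p = 0.258). Nefm ran from spinal cord (1182 ± 51.2) through brain (195.6 ± 14.5), cortex (125.3 ± 20.4) and cerebellum (118.4 ± 10.1) to hippocampus (95.1 ± 9.09). Nefh put cerebellum (74.2 ± 2.62) next after brain (94.7 ± 6.79) and spinal cord (624.3 ± 16.01), and Ina put it (118.6 ± 6.94) between spinal cord (135.3 ± 5.66) and brain (93.8 ± 4.33). Hemi-sections and regions carry different ages in the labels and were not compared by a test.

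The composition of the summed message makes the same contrast visible within each library. Summed over the 5 genes, TPM averaged 2922 ± 167.8 (SD, n = 24) in spinal cord and 634.7 ± 62.8 (n = 24) in brain, and it was much alike in cortex (447.4), hippocampus (464.9) and cerebellum (459.9, n = 6 each, both genotypes). Nefl made up 54.6 ± 1.37% of the sum in hippocampus, 48.0 ± 1.13% in cortex, 42.2 ± 1.09% in brain, 35.7 ± 0.62% in spinal cord and 30.1 ± 0.62% in cerebellum. Nefh took 6.78 ± 0.44% in hippocampus and 7.48 ± 0.31% in cortex but 17.0 ± 0.59% in cerebellum and 19.6 ± 0.46% in spinal cord. Cerebellum and spinal cord parted over the other subunits: Ina was 25.8 ± 1.80% of the sum in cerebellum and 5.39 ± 0.59% in spinal cord, while Nefm was 27.1 ± 1.48% and 37.5 ± 0.83%. Nefm exceeded Nefl only in spinal cord, where the Nefm to Nefl ratio of TPM averaged 1.05 (0.968 to 1.12), and it was 0.900 in cerebellum (up to 0.980) and 0.381 (0.348 to 0.425) in hippocampus. The ratio ranges of cerebellum and hippocampus did not overlap for Nefm to Nefl, and those of Nefh to Nefl, 0.540 to 0.604 and 0.112 to 0.139, did not either. Between the wild types alone, each of these contrasts had an exact two-sided permutation p of 0.1, below which 3 libraries a side cannot go.

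**Figure D2:**
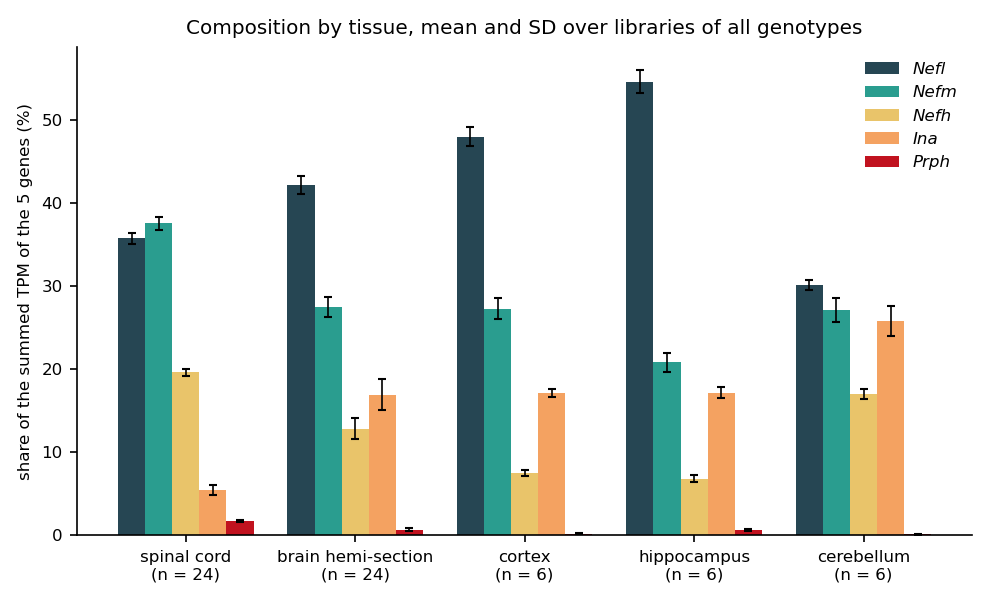
Share of each gene in the summed TPM of the 5 genes (percent, mean with SD over libraries of all genotypes) for each tissue. Nefl has its largest share in hippocampus (54.6%), Ina in cerebellum (25.8%) and Nefm and Nefh in spinal cord (37.5% and 19.6%).

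Ina and Prph differed between the wild-type strains in both tissues. Ina was at 90.8, 98.8 and 91.8 TPM in DBA/1J brain against 115.5, 125.4 and 118.9 in C57BL/6J brain. In spinal cord it was at 141.8, 131.5 and 132.6 TPM in DBA/1J against 166.1, 164.4 and 177.0 in C57BL/6J. Every DBA/1J value lay below every C57BL/6J value in each tissue, and how many of all genes separate so was not counted. By edgeR, Ina fell by 0.30 on the log2 scale in brain (SE 0.05, 1.23-fold lower, adjusted p = 0.00488), where 11.2% of all genes tested were called, and by 0.33 in spinal cord (SE 0.05, 1.26-fold lower, adjusted p = 1.97e-04), where 21.3% were. Prph went the other way. It was at 5.50, 5.21 and 4.83 TPM in DBA/1J brain against 3.10, 3.67 and 2.90 in C57BL/6J, and at 59.97, 61.96 and 55.22 TPM in DBA/1J spinal cord against 46.9, 46.9 and 50.7. Again no library crossed over, and Prph was 1.68-fold higher in brain (log2 fold change 0.75, SE 0.14, adjusted p = 0.00773) and 1.22-fold higher in spinal cord (0.29, SE 0.07, adjusted p = 0.00983). The brain call for Prph was lost when all groups of the tissue were fitted together (0.75, adjusted p = 0.142). Without the DBA/1J brain that lacked cerebellar markers Ina was -0.29 (adjusted p = 0.00863) and Prph 0.69 (adjusted p = 0.0229).

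The 3 neurofilament chains themselves were not called between the strains. In brain the log2 fold change of DBA/1J over C57BL/6J was 0.15 for Nefl (SE 0.06, adjusted p = 0.162), 0.12 for Nefm (SE 0.06, adjusted p = 0.307) and 0.23 for Nefh (SE 0.08, adjusted p = 0.112). Without the DBA/1J brain that lacked cerebellar markers these were 0.09, 0.07 and 0.19 (adjusted p = 0.463, 0.610 and 0.225). In spinal cord it was 0.08 for Nefl (SE 0.04), 0.13 for Nefm (SE 0.06, adjusted p = 0.143) and 0.17 for Nefh (SE 0.06, adjusted p = 0.0632). DESeq2 called Nefh in both brain (0.23, adjusted p = 0.0483) and spinal cord (0.17, adjusted p = 0.00867), and edgeR called it in spinal cord without the filter on low counts (adjusted p = 0.0102) and in 1 fit of all groups (adjusted p = 0.0341). The ratio of Ina to Nefl was accordingly lower in DBA/1J, at 0.321 against 0.435 in brain and 0.123 against 0.163 in spinal cord, with every DBA/1J library below every C57BL/6J library (two-sided p = 0.1 by exact permutation, the floor for 3 against 3), and without that DBA/1J brain the ratio there was 0.336. The strain difference in Prph was smaller in spinal cord than in brain by 0.47 (SE 0.13, unadjusted p = 0.00340), which did not pass over all genes (adjusted p = 0.197), nor without that brain (-0.41, adjusted p = 0.361). Across strains 0.321% of genes had such an interaction called. Oligodendrocyte markers summed to 3507 to 3848 CPM (counts scaled to library size) in DBA/1J brain and 4112 to 4999 in C57BL/6J brain, 2 of the 4 being lower by the test with or without that brain, and their part in the strain values was not tested.

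Levels were also set side by side over all libraries of each background, mutants included. Over all 18 brain libraries of the C57BL/6-derived groups Ina had a lowest value of 94.6, a median of 111.6 and a highest of 125.4 TPM, against 88.0, 95.1 and 99.6 over the 6 DBA/1J and Rorb h5/h5 brains, so that the ranges overlapped. In spinal cord the corresponding values of Ina were 153.4, 164.4 and 177.0 TPM against 131.5, 134.6 and 141.9, with no overlap. Prph in brain ranged from 1.61 to 5.94 TPM (median 3.45) against 4.83 to 7.12 (median 5.45), and in spinal cord from 43.1 to 59.4 (median 48.4) against 50.6 to 62.0 (median 56.0), so that Prph ranges overlapped in both tissues.

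**Figure D3:**
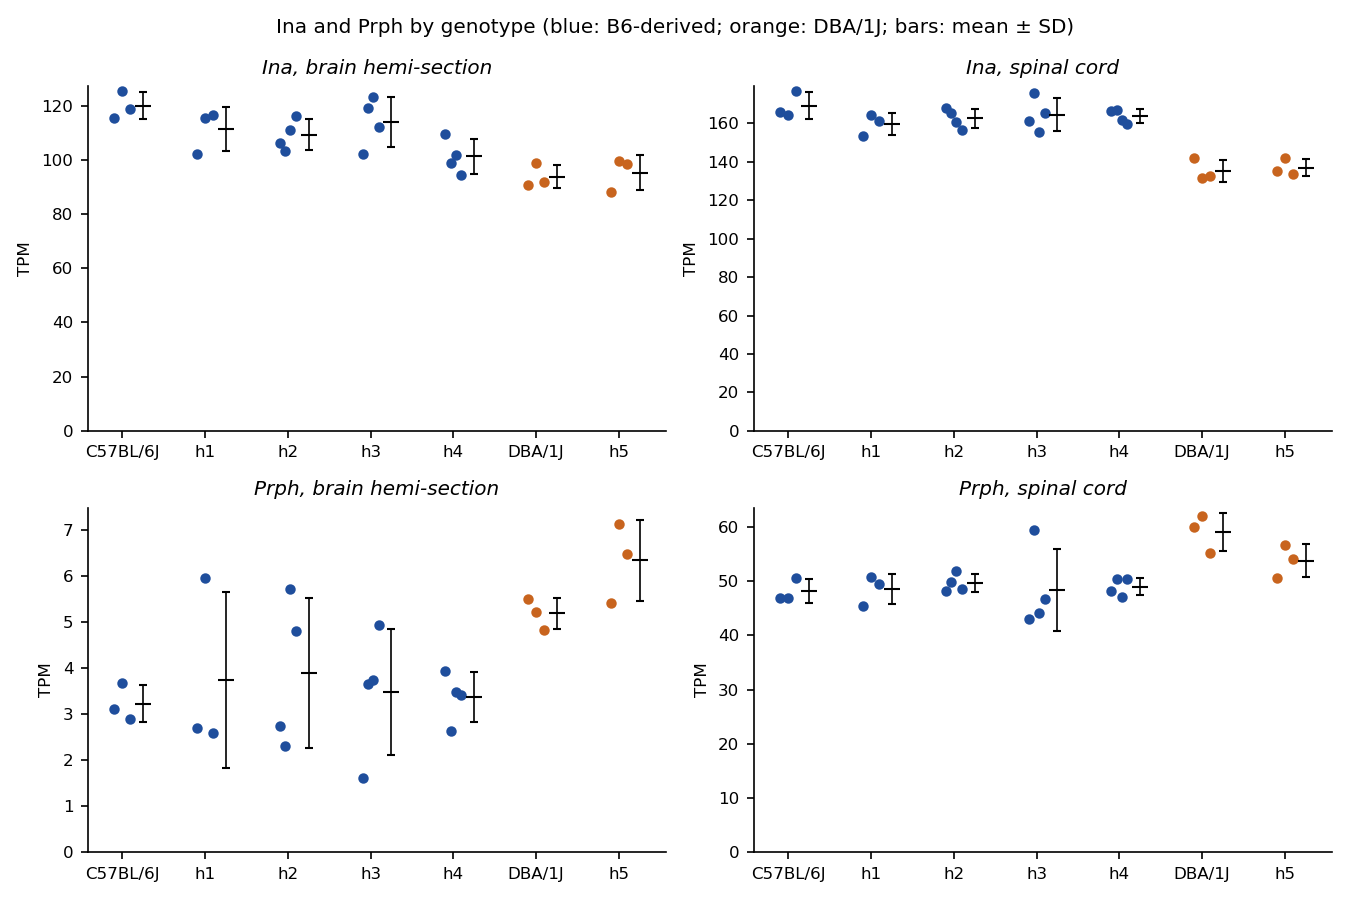
TPM of Ina and Prph in each brain and spinal cord library (points) with the group mean and SD, by genotype. In spinal cord the 6 DBA/1J and Rorb h5/h5 libraries lie at 131.5 to 141.9 TPM for Ina, below all 18 libraries of C57BL/6J and Rorb h1/h1 to h4/h4.

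No difference of the 5 genes between a Rorb mutant and its control passed the test. In 13 comparisons of a mutant with its control, giving 65 tests of a member gene, edgeR called none, against 0 to 2.09% of all genes tested per comparison. The log2 fold changes ran from -0.25 to 0.84 and the smallest adjusted p was 0.144; 7 tests (10.8%) had an unadjusted p under 0.05, against 4.22 to 15.6% of all genes per comparison, and DESeq2 called 2, both in Rorb h4/h4 brain.

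**Figure D4:**
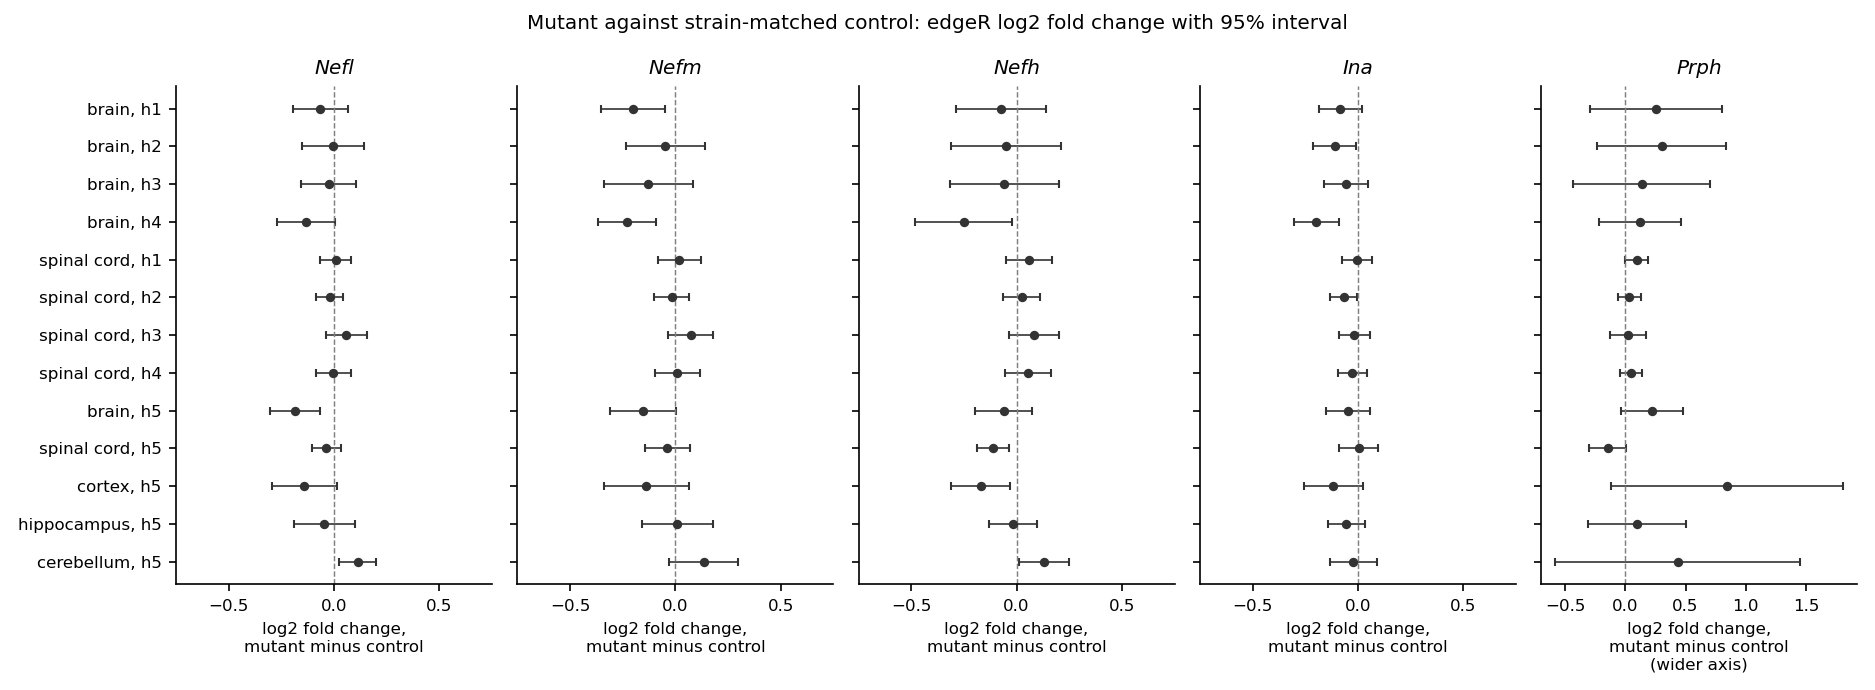
edgeR log2 fold change (mutant minus strain-matched control) with its 95% confidence interval for each gene in 13 comparisons; the axis of Prph is wider. In spinal cord the Rorb h1/h1 to h4/h4 values lie between -0.07 and 0.09, and every interval of Prph in the dissected regions includes 0.

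In Rorb h4/h4 brain 0.703% of all genes were called and none of the 5 members. Ina was at 109.7, 99.0, 101.7 and 94.6 TPM against 115.5, 125.4 and 118.9 in C57BL/6J brain. Nefm was at 175.4, 154.0, 157.2 and 132.4 TPM against 180.7, 192.7 and 188.5. All 4 mutant libraries lay below all 3 controls for both genes. How many of all genes separate in this way was not counted, in this or any other comparison here. Of all genes, 13.2% had an unadjusted p under 0.05 in Rorb h4/h4 brain by edgeR. Ina had a log2 fold change of -0.20 (SE 0.05, unadjusted p = 0.00381, adjusted p = 0.144, edgeR) and Nefm of -0.23 (SE 0.07, unadjusted p = 0.00701, adjusted p = 0.187). DESeq2 gave -0.20 with adjusted p = 0.0379 for Ina and -0.23 with adjusted p = 0.0460 for Nefm, and leaving out 1 library at a time in edgeR gave adjusted p from 0.0865 to 0.317 for Ina and from 0.0733 to 0.384 for Nefm. Nefh, at 82.9, 60.3, 73.3 and 55.8 TPM against 88.8, 85.6 and 76.5, and Nefl, at 272.2, 239.6, 247.9 and 213.2 TPM against 263.2, 283.9 and 279.7, overlapped with their controls (log2 fold changes -0.25, SE 0.12, adjusted p = 0.391, and -0.13, SE 0.07, adjusted p = 0.433). Prph showed a value of 0.12 (SE 0.17). The Nefm to Nefl ratio was 0.635 against 0.680 with all 4 mutants lower (two-sided exact permutation p = 0.0286, the floor for 4 against 3, and 0.286 after adjustment over 20 comparisons).

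Summed markers of other cell types overlapped between these groups. Oligodendrocyte markers summed to 3520 to 4252 CPM in Rorb h4/h4 brain and 4139 to 4981 in C57BL/6J brain, Purkinje cell markers to 341.4 to 509.1 against 441.8 to 541.5, and motor neuron markers to 20.3 to 24.7 against 20.7 to 23.8. None of the 4 oligodendrocyte, 3 Purkinje or 4 tested motor neuron markers was called there, and their part in the neurofilament values was not tested. In Rorb h4/h4 spinal cord Nefm was at 1074, 1085, 993.6 and 1106 TPM against 1096, 987.5 and 1143, and Ina was at 166.4, 167.0, 161.5 and 159.4 against 166.1, 164.4 and 177.0. Both overlapped, with log2 fold changes of 0.01 (95% interval -0.10 to 0.11) for Nefm and -0.03 (-0.09 to 0.04) for Ina. The difference of the Rorb h4/h4 effect between spinal cord and brain was not called for any member gene, and 0.0054% of all genes were called. With the animal as a block the difference was 0.25 for Nefm (unadjusted p = 0.019, adjusted p = 0.41), 0.33 for Nefh (0.022, 0.43) and 0.18 for Ina (0.012, 0.37). The same edgeR term gave -0.36 for Prph (0.0064, 0.99) and 0.15 for Nefl (0.042, 0.99) with h5. With h1 it gave 0.24 for Nefm (unadjusted p = 0.032), which did not pass the adjustment either.

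The brains of the other C57BL/6-derived mutants were set against the same 3 controls. In Rorb h1/h1, where 0% of genes were called (745 had an unadjusted p under 0.05 and DESeq2 called 21), Nefm was at 134.7, 180.6 and 166.3 TPM, below the lowest control of 180.7 in all 3 mice, with a log2 fold change of -0.20 (SE 0.08, unadjusted p = 0.0249, adjusted p = 0.998). The Nefm to Nefl ratio of Rorb h1/h1 brain was 0.617 against 0.680, again with all 3 lower (two-sided exact permutation p = 0.1). In Rorb h2/h2, with 0.136% of genes called, the largest value relative to its error was that of Ina, -0.11 (SE 0.05, unadjusted p = 0.0574, adjusted p = 0.693). In Rorb h3/h3, with 0.164% called, Nefm was at -0.13 (SE 0.11) and Ina at -0.06 (SE 0.05).

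In spinal cord 0.289% of all genes were called with h1, 2.09% with h2, 1.01% with h3 and 1.75% with h4, and none of the 20 member tests was called. None had an unadjusted p under 0.05 either, which 11.3 to 15.6% of all genes had. For Nefl, the most abundant in brain, the log2 fold change was 0.01 with h1 (95% interval -0.07 to 0.08), -0.02 with h2 (-0.09 to 0.04), 0.06 with h3 (-0.04 to 0.16) and -0.0042 with h4 (-0.09 to 0.08). For Prph, the member most enriched in spinal cord, it was 0.09 (0.00 to 0.19), 0.03 (-0.06 to 0.13), 0.02 (-0.13 to 0.17) and 0.05 (-0.04 to 0.14). Of 5 pan-neuronal markers, Syt1 and Elavl4 were lower in Rorb h2/h2 spinal cord (-0.13 and -0.24) and Syt1 in Rorb h4/h4 spinal cord (-0.20), and none in the other 2. The widest spread among these mice was in Rorb h3/h3, whose Nefl ran over 1116, 1167, 923.7 and 1049 TPM and Prph over 43.1, 59.4, 44.1 and 46.8 TPM.

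Rorb h5/h5 was measured in 5 tissues against DBA/1J, and none of its 25 member tests was called; the smallest adjusted p was 0.522. By edgeR 0% of all genes were called in brain and in cortex (1003 and 1106 genes with an unadjusted p under 0.05, and 64 and 60 called by DESeq2), 0.00581% in spinal cord, 0.0118% in hippocampus and 0.012% in cerebellum. In brain Nefl was at 247.2, 285.4 and 281.0 TPM against 312.7, 278.8 and 288.9 in DBA/1J, which overlapped (log2 fold change -0.19, SE 0.06, unadjusted p = 0.0135, adjusted p = 0.671). The highest of these controls was the library that lacked cerebellar markers, and without it Nefl was -0.14 (adjusted p = 0.805) and no member was called. In spinal cord Nefh was at 576.2, 602.3 and 569.4 TPM against 636.9, 606.3 and 629.8, all lower, with a log2 fold change of -0.11 (SE 0.04, unadjusted p = 0.0183, adjusted p = 0.522), and without the library with abundant Schwann cell markers it was -0.09 (adjusted p = 0.505).

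The dissected regions of Rorb h5/h5 gave no call either. In cortex Nefh was at 32.8, 32.0 and 32.0 TPM against 31.8, 38.4 and 33.5 (log2 fold change -0.17, SE 0.07, unadjusted p = 0.0393, adjusted p = 0.764) and Nefl at -0.14 (SE 0.08). In cerebellum Nefl was at 144.9, 146.8 and 141.4 TPM against 129.1, 136.8 and 131.8, all higher (0.11, SE 0.04, unadjusted p = 0.0313, adjusted p = 0.857), and Nefh was at 80.7, 88.6 and 76.3 against 71.2, 76.2 and 75.1 (0.13, SE 0.06, adjusted p = 0.885). In hippocampus the values of Nefl, Nefm, Nefh and Ina lay between -0.05 and 0.01. The largest point value was that of Prph in cortex, 0.84, with a 95% interval of -0.12 to 1.80 on 19, 30 and 24 counts against 5, 17 and 15. Without replicate 3, whose sex label did not match, Nefh in cortex was -0.17 and Nefl in cerebellum 0.13, and no member was called in any region.

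Levels of pairs of member genes were correlated from mouse to mouse within a genotype. Each library's log2(TPM + 1) was taken as its deviation from its group mean, and p-values came from 100000 permutations of libraries within groups, two-sided, over 20 pairings of members. All 10 pairs passed the adjustment in brain and 7 of 10 in spinal cord, each with a positive r, and the 3 that did not were those of Prph with Nefl, Nefm and Nefh (adjusted p = 0.374, 0.0637 and 0.0967). In brain (n = 24) Nefl and Nefm gave Pearson r = 0.924 (Spearman rho 0.912, permutation p = 1e-05 for each, the smallest the permutations can give, adjusted p = 2.0e-04), and Nefm and Nefh gave r = 0.912 (rho 0.880, p = 3e-05). These remained 0.898 and 0.861 without the 2 libraries farthest from the median. In spinal cord (n = 24) Nefl and Nefh gave r = 0.871 (rho 0.794, permutation p = 1.9e-04 and 5.8e-04, 0.748 without the 2 farthest). Nefl and Prph gave r = 0.736 in brain (rho 0.797, permutation p = 9.1e-04 and 2.6e-04, 0.769 without the 2 farthest) but 0.425 in spinal cord (rho 0.162, permutation p = 0.374 and 0.549), where it rested on the 2 farthest libraries (-0.133 without them). Members of a pair were measured in the same library and share its dissection and depth.

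Marker sums were set against this shared variation in each tissue. The relation was computed for 19 marker and pathway lists, 5 genes and 2 tissues, 190 in all, of which 21 passed in brain over 6 lists and 8 in spinal cord over 5, every one with a positive r. In brain, oligodendrocyte markers (Mbp, Mog, Mag and Mobp) gave r = 0.918 with Nefh (rho 0.897, permutation p = 5e-05 and 1.0e-04, adjusted p = 0.00443, 0.887 without the 2 farthest libraries). The corresponding r was 0.796 for Nefm, 0.760 for Nefl, 0.815 for Prph and 0.637 for Ina. In spinal cord the same markers gave 0.273 with Nefh (rho 0.223, permutation p = 0.463 and 0.365), 0.146 with Nefl and 0.010 with Nefm. There pan-neuronal markers gave r = 0.893 with Nefl (rho 0.850, permutation p = 5e-05 and 1e-05, adjusted p = 0.00443, 0.832 without the 2 farthest) and motor neuron markers 0.847 (rho 0.817, permutation p = 7e-05 and 1.9e-04, 0.775 without the 2 farthest). With the other members pan-neuronal markers gave r from 0.176 (Prph) to 0.589 (Nefm), none of which passed the adjustment (adjusted p from 0.124 to 0.906), and motor neuron markers passed with Nefh (0.817, adjusted p = 0.013) but not with Nefm (0.552, adjusted p = 0.159), Ina or Prph. Also passing in spinal cord were axonal microtubule genes with Nefl (0.798), Ina (0.752) and Nefh (0.671). So were fast interneuron markers with Nefl (0.711) and axon injury genes with Ina (0.728), these adjusted p running from 0.013 to 0.0474. In brain, the motor neuron list gave r = 0.704 with Nefl (rho 0.731, permutation p = 8.0e-04 and 0.00238, adjusted p = 0.013, 0.642 without the 2 farthest) and 0.748 with Nefh. This list also summed to 1.27 to 14.3 TPM in cortex, against 10.3 to 20.2 in brain, so in brain its sum is not particular to motor neurons. Endothelial markers gave 0.597 to 0.670 with Nefl, Nefm, Nefh and Ina (adjusted p from 0.024 to 0.0399), and the other intermediate filament genes 0.791 with Nefh (adjusted p = 0.013). Axonal microtubule genes gave 0.621 with Nefl and 0.695 with Ina (adjusted p = 0.0392 and 0.0255), and the axon injury list 0.697 with Nefl (adjusted p = 0.0095). That list, which includes Gap43 and Jun, summed to 228.4 to 295.7 TPM in brain and 160.6 to 203.1 in spinal cord. No injury was part of the design, so its sum is not read as axon damage. In brain, pan-neuronal markers gave 0.215 with Nefl and -0.159 with Nefh. Without the DBA/1J brain that lacked granule cell markers (n = 23), r was 0.927 for Nefl and Nefm, 0.912 for Nefm and Nefh, 0.918 for oligodendrocyte markers and Nefh and 0.696 for motor neuron markers and Nefl. The difference between tissues was not tested, nor was the part of dissection in it.

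**Figure D5:**
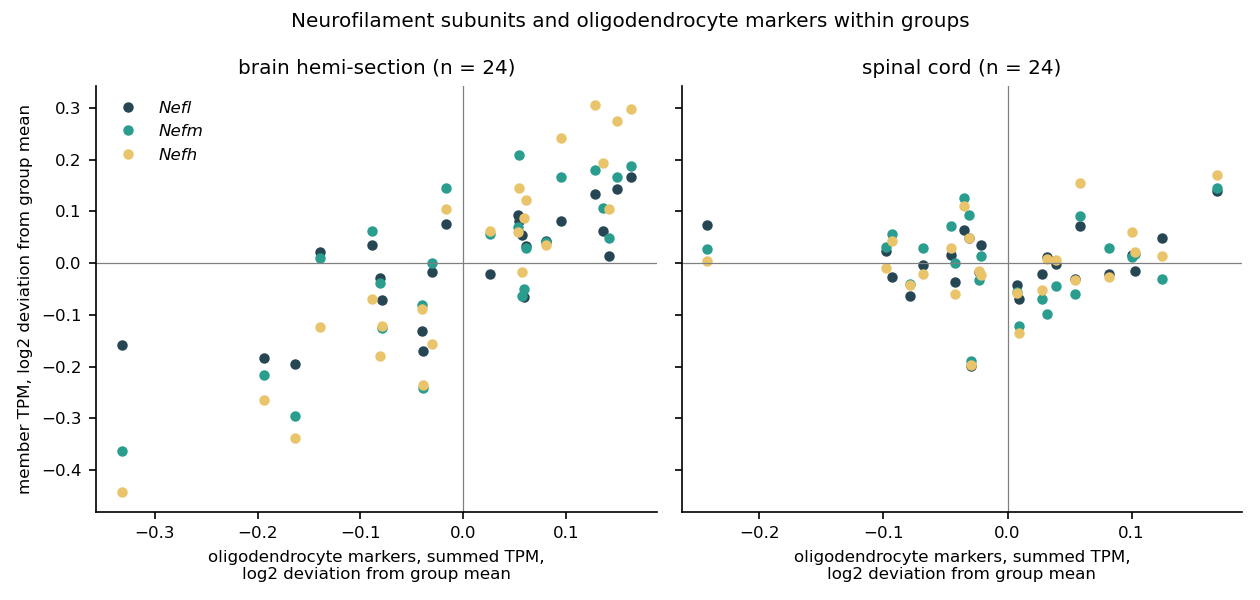
Log2 deviation of Nefl, Nefm and Nefh (TPM) from their group mean against that of the summed oligodendrocyte markers, 1 point per gene and library, for 24 brains and 24 spinal cords. The points rise together in brain (r = 0.918 for Nefh) and not in spinal cord (r = 0.273).

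Genes that act on neurofilaments were also counted, beside the share of all genes called. Of 14 genes for the transport, kinase regulation, turnover and linkage of the filaments, 14 were tested, and none was called in the 13 mutant comparisons, in which 0 to 2.09% of all genes were. Between C57BL/6J spinal cord and brain 8 were higher and 5 lower in spinal cord (median log2 fold change 0.20), where 56.9% of all genes were called in either direction. Dst, a linker of filaments to other cytoskeleton, was higher by 0.66 (SE 0.06) and Trim2, a ubiquitin ligase for the light chain, by 0.32 (SE 0.05), whereas Kif5a, the kinesin motor that carries neurofilaments along axons, fell by 0.59 (SE 0.05). Between strains 2 were lower in DBA/1J brain and 5 in DBA/1J spinal cord with none higher, against 11.2% and 21.3% of all genes called. Without the DBA/1J brain that lacked cerebellar markers 1 of 14 was lower in brain, against 9.68% of all genes. Kif5a was lower in both, by -0.52 in brain (SE 0.06, adjusted p = 3.2e-04; -0.54, adjusted p = 9.15e-04, without the DBA/1J brain that lacked cerebellar markers) and -0.37 in spinal cord (SE 0.04, adjusted p = 3.1e-05).

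Other cytoskeletal genes were counted in the same way. Of 9 other intermediate filament genes, 3 were higher and 2 lower in C57BL/6J spinal cord than in brain (median 0.10), against 56.9% of all genes called, with the astrocyte filament Gfap higher by 2.92 (SE 0.07) and the muscle-type filament Des at -1.73 (SE 0.27). Between strains 1 of the 9 was higher and 1 lower in DBA/1J brain, where 11.2% of all genes were called, and 2 were lower in DBA/1J spinal cord, where 21.3% were. Synm, which encodes synemin, was higher in DBA/1J brain (0.29, adjusted p = 0.0226), a call lost without the DBA/1J brain that lacked cerebellar markers (0.21, adjusted p = 0.0606). Nestin (Nes), the filament of progenitor cells, was lower in DBA/1J by -0.60 in brain (adjusted p = 0.0130, and -0.74 with 0.00221 without it) and -0.75 in spinal cord (adjusted p = 0.00346). Of 9 axonal microtubule genes, 6 were higher and none lower in C57BL/6J spinal cord, against the same 56.9%, Tubb3 by 0.77 (SE 0.05), and Mapt, which encodes tau, was the only 1 of the 9 called between strains in brain or spinal cord (against 11.2% and 21.3% of all genes), being lower in DBA/1J in both brain (-0.32, adjusted p = 0.00328, and -0.32 with 0.00777 without that brain) and spinal cord (-0.40, adjusted p = 1.5e-05). Among the axon injury genes, of which 6 of 7 were tested in both spinal cord and brain of each strain, none was called in any mutant comparison, in which 0 to 2.09% of all genes were. The only other intermediate filament gene called against a control in a mutant was Vim, at 0.18 in Rorb h2/h2 spinal cord (adjusted p = 0.0268).

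Genes whose pattern was most like each member were ranked by the Pearson r of log2(TPM + 1) over the 20 group means, as a description with no test. Nefl was closest to Ankrd35 (r = 0.997), Ano4 (0.992) and Kcnj14 (0.992). Nefm was closest to Hoxa3 (0.998), Hoxd4 (0.998) and Rasgrp3 (0.996), and Nefh to A330074K22Rik (0.994), Endod1 (0.994) and Serpinb1a (0.993). Ina was closest to Ublcp1 (0.988), Prune2 (0.984) and Chpt1 (0.983), and Prph to Cd24a (0.989), Pals1 (0.989) and Lbh (0.987). The group means are dominated by the step between spinal cord and brain, and 14 of the 20 groups are of those tissues. The genes named depend on the setting: with a pseudocount of 0.1 in place of 1, Prph kept 0 of its 3 genes, Nefm and Nefh 1 each, Nefl 2 and Ina 3, and over the 66 libraries Ina and Prph kept 1 each and Nefl, Nefm and Nefh 2 each. Among the members themselves r over group means was 0.984 for Nefm and Nefh, 0.985 for Nefl and Prph, 0.971 for Nefl and Nefm and 0.771 for Nefl and Ina.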

How the data were processed

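RNA-seq libraries of 66 mouse samples in 20 groups of tissue and genotype were analysed from the table the authors deposited for each, which gives RSEM expected counts and TPM per gene. Per the paper's methods and the labels, the authors trimmed reads with Trim Galore, aligned them with STAR to GRCm38, quantified them with RSEM and tested them with DESeq2. The annotation release and the strand setting are not given in the sources used here. If reads were counted without strand, those of Nefm, Nefh and Ina cannot be told apart from those of overlapping genes on the other strand. Of all deposited expected counts 5.07% were not whole and were rounded; those of the 5 genes were all whole. Symbols came from the later GENCODE annotation (41403 of 45706 identifiers matched) and coordinates and promoters from RefSeq GRCm38.p6, whose promoter table holds 2 of the 5 genes.

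Each pair of groups within a tissue, or pair of tissues within a strain, was fitted alone with edgeR 4.0.16 (limma 3.58.1, R 4.3.3) by the quasi-likelihood test, with TMM scaling, filterByExpr and Benjamini-Hochberg adjustment over all genes tested at 0.05. Alternatives were DESeq2 1.42.0, its size factors in edgeR, no filter, limma on log2(TPM + 1), 1 fit of all groups of a tissue, sex as a covariate, a replicate block, and leaving out each library. edgeR was tested on simulated counts. Named genes were the 5 genes in full, Rorb as the check of the labels, up to 4 examples from each context list and the 3 genes most like each member with a mean TPM of at least 1. The genes and lists were chosen with earlier results of these data known. A few genes of the context lists are not reported here, and the counts and sums of their lists were made without them. Brain and spinal cord libraries of a genotype with the same number share age and sex label, and the replicate number was used to pair them. The dissected regions were paired in the same way. Deviations of paired spinal cord and brain libraries correlated at 0.1 to 0.33 in DBA/1J but at 0.00226 to 0.148 in C57BL/6J. That a pair is of 1 mouse is thus taken from the numbers. Mutants and controls share only numbers.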

Additional observations from a re-analysis of the deposited data

Results flagged for a closer look

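In the 6 groups of 4 libraries, 30 sets of TPM values (5 genes in each group) were examined for a library far from the others, and 1 was found. Nefh in Rorb h3/h3 brain was at 57.22 TPM in replicate 1, against 86.5, 84.1 and 89.5 TPM in the other 3 mice. Chance alone marks about 1 in 20 such sets. The same library had the lowest Prph of all brains, 1.61 TPM, and the lowest oligodendrocyte marker sum, 3247 TPM. Its mouse was labelled 9.6 weeks old, the highest age in the series.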

How the results depend on the processing

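Of 680 values recomputed under another setting, 655 kept their direction and side of the threshold, 3 lost a call, 7 gained one and 15 changed sign. Of 640 recomputed with 1 library left out, 583 kept both, 5 lost a call, 6 gained one and 46 changed sign. The interactions, brain correlations and context genes without the DBA/1J brain that lacked granule cell markers were added after seeing the data. The cause of each change was not tested. The sign changes were of log2 fold changes that were called neither before nor after: with the replicate block Prph in h3 brain (-0.1573) and Nefm in h4 spinal cord (-0.023), with sex as covariate Nefl in h2 brain (0.0005), Prph in h3 spinal cord (-0.0027) and Nefm in h5 spinal cord (0.0106), and without the filter Ina in hippocampus against cortex (0.0003). On log2(TPM + 1), which moved the median of all genes by up to 0.21 (cerebellum against cortex), Nefl, Nefm and Nefh in h1 spinal cord were -0.0732, -0.0607 and -0.02, Prph in h3 spinal cord -0.0052, Nefm in h4 spinal cord -0.0132, Nefh and Ina in h5 brain 0.0096 and 0.0216, Nefh in h5 hippocampus 0.0168 and Ina in hippocampus against cortex 0.0499. Leaving out 1 library at a time gave Nefh -0.2315 to 0.0142, Prph -0.2455 to 0.4719 in h1 brain, Nefl -0.0601 to 0.061, Nefm -0.1095 to 0.0467, Nefh -0.1521 to 0.0584 in h2 brain, Nefl -0.0747 to 0.02, Nefh -0.1537 to 0.0653, Prph -0.1086 to 0.374 in h3 brain, Nefl -0.0259 to 0.0286, Nefm -0.0458 to 0.065, Nefh -0.0011 to 0.1205, Ina -0.0184 to 0.0118 in h1 spinal cord, Nefm -0.0731 to 0.0123, Nefh -0.0371 to 0.0865, Prph -0.0002 to 0.0573 in h2 spinal cord, Prph -0.0663 to 0.076 in h3 spinal cord, Nefl -0.0353 to 0.0234, Nefm -0.046 to 0.0457, Nefh -0.0071 to 0.1212 in h4 spinal cord, Ina -0.0402 to 0.0358 in h5 spinal cord, Nefl -0.0937 to 0.0173, Nefm -0.0768 to 0.0696, Nefh -0.0755 to 0.023, Prph -0.0648 to 0.2241 in h5 hippocampus, Ina -0.0648 to 0.0292 in h5 cerebellum, Ina -0.0474 to 0.0268 in hippocampus against cortex. Of the 5 genes, DESeq2 called 2 in h4 brain, 1 fit of all groups called 1 between strains in brain, and log2(TPM + 1) called 1 between hippocampus and cortex and all 5 between hippocampus and cerebellum, Nefm included. Leaving out 1 library gave 2 to 4 between strains in spinal cord (4 without DBA/1J replicate 3), 2 to 3 in brain, 1 to 3 between hippocampus and cortex, 3 to 4 between cerebellum and cortex and 4 to 5 between hippocampus and cerebellum. Over all genes, edgeR, DESeq2 and limma on log2(TPM + 1) called 0, 21 and 0 in h1 brain, 24, 92 and 4 in h2 brain, 29, 195 and 4 in h3 brain, 125, 464 and 16 in h4 brain, 50, 136 and 0 in h1 spinal cord, 365, 594 and 18 in h2 spinal cord, 176, 444 and 12 in h3 spinal cord, 305, 603 and 23 in h4 spinal cord, 1, 94 and 0 in h5 spinal cord, 2, 43 and 2 in h5 hippocampus, 2, 48 and 0 in h5 cerebellum and, between strains in spinal cord, 3687, 3674 and 1870. The replicate block changed no call of the 5 genes. It moved the count over all genes to 244 in h4 brain, 3 in h2 brain, 2 in h3 brain, 89 in h1 spinal cord, 10 in h5 spinal cord, 15 in h5 cerebellum and 1293 between strains in brain, against 1952 without it. Prph is limited by depth in DBA/1J cortex (5 to 17 counts) and cerebellum (6 to 14).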
